A study of Drosophila melanogaster with 2 samples.

Results

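Deep intronic peaks were the ChIP-seq peaks of the embryo NFAT fusion protein whose summit lay inside an annotated protein-coding gene, in no annotated exon, and more than 2000 bp from the nearest protein-coding transcription start site (TSS). Of the 4899 peaks that the larger thresholded list of the series placed on the chromosome arms, 700 met this rule (14.3%, 95% Wilson interval 13.3 to 15.3). The rule used position alone. The 3 members nearest to the limit lay in Galphao, RhoL and CG43658, at 2010, 2012 and 2012 bp from a TSS, with signals of 56.9, 78.8 and 76.4. The 3 intronic peaks nearest to it on the other side lay in hiw, snu and RhoGAP18B, at 1994, 1993 and 1990 bp, with signals of 57.9, 102.7 and 123.1. Signal is the value the authors' peak caller gave each peak. Its scale is not stated, so it only ranks and describes peaks within a list.

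The 2 samples were biological replicates of 1 group: embryos of 0 to 24 h, whole animals, of a strain with an NFAT-GFP insertion directed at NFAT. An antibody against GFP was used to precipitate chromatin sonicated to a range of 200 to 800, per the labels. There was no second condition, so every comparison below sets peaks against sequence, genes or other peaks. A collection of this width pools all embryonic stages and tissues, and the lists hold no read totals, so depth is unknown and intervals cover counting error only. The labels name a possible control experiment, which was not analysed here. Chromatin of whole animals cannot show which cell type carried a peak.

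NFAT is the fly member of a family of Rel-domain transcription factors. The vertebrate calcium-regulated NFAT proteins move to the nucleus when calcineurin dephosphorylates them, and they bind DNA around a GGAAA core, often with a partner such as AP-1. Long introns of developmental genes in flies hold many enhancers, the regulatory elements to which transcription factors bind at a distance from the promoter. Peaks of this position are therefore read with the question of which sequences and which genes they mark.

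The sequences that recurred at these peaks are shown first. Each is from the plus strand of the Release 6 genome (RefSeq), reads 5′ to 3′, and is centred on the summit. In the first pair, which reaches 50 bp to each side of the summits of the strongest 2 members, capitals mark CACTG or its reverse complement, which the CG32486 window lacks. The Tlk window is chrX:3742188-3742288 and the CG32486 window is chr3L:3060736-3060836.
Tlk: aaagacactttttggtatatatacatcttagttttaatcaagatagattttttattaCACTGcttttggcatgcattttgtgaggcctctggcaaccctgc
CG32486: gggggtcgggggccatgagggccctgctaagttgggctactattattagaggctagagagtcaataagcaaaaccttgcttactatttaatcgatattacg

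The next 5 windows reach 100 bp to each side and belong to strong members that carry the hexamer ACAGTG, or its reverse complement CACTGT, 25 to 125 bp from the summit with the summit on its 3′ side. Capitals mark every copy of that hexamer. In the windows of Hr4, Evi5 and CHES-1-like, a copy of ACAGTG on the left and a copy of CACTGT on the right face each other across the summit. The CHES-1-like window also holds 1 copy on each side that faces outward. The windows are chrX:2297619-2297819 for Raf, chrX:17880388-17880588 for mnb, chrX:1963816-1964016 for Hr4, chrX:11447106-11447306 for Evi5 and chrX:7700318-7700518 for CHES-1-like.
Raf: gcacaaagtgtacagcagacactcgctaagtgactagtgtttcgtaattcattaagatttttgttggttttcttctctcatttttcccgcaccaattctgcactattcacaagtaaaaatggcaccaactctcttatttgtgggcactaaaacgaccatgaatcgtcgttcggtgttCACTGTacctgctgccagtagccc
mnb: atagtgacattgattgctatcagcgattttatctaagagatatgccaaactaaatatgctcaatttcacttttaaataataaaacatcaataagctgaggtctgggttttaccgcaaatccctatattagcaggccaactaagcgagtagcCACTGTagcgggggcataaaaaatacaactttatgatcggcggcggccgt
Hr4: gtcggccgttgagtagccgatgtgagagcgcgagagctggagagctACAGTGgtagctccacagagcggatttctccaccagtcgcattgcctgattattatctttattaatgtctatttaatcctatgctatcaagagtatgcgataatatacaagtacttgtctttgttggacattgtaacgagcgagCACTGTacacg
Evi5: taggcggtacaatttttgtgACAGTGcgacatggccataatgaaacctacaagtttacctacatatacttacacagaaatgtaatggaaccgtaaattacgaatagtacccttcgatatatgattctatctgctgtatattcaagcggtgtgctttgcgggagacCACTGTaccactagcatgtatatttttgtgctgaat
CHES-1-like: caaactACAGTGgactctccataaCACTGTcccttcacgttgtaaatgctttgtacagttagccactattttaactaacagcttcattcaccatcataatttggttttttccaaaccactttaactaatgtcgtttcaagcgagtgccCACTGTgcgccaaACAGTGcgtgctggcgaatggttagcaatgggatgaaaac

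The last pair shows windows of the shorter kind with the G-run hexamer AGGGGG in capitals, from a member in dar1, at chr3L:3632579-3632679, and from a second member in Tlk, at chrX:3744032-3744132. AGGGGG was the hexamer with the lowest p among those higher at the summits than in flanking sequence, as described below, and both windows are among the strongest that hold it.
dar1: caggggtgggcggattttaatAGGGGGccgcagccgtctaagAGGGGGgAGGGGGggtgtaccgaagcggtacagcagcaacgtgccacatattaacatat
Tlk second: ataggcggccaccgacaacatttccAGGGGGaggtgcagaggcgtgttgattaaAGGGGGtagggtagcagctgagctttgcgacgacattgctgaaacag

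ACAGTG lay more often on one side of the summits of deep intronic peaks than on the other. Within 25 to 125 bp of a summit, 156 copies had the summit on their 3′ side and 49 had it on their 5′ side, read along the strand that spells ACAGTG. Copies were most frequent in the 25 bp bin from 50 to 75 bp (48 copies), with 42 copies in each of the neighbouring bins, whereas the bins between 125 and 25 bp on the 5′ side held 10 to 14 copies each. The hexamer, the distance range and this side test were chosen after the positions had been seen in these same peaks, so the test is not independent evidence. All 2016 pairs of a hexamer and its reverse complement were then compared in the same way, by whether each member carried a copy on the 3′ side only or on the 5′ side only. In that exact sign test, adjusted by the Benjamini-Hochberg method over all pairs, 23 hexamers differed between the sides at an adjusted p under 0.05 (1.14% of those tested). ACAGTG had the lowest p: 109 members carried it with the summit only on its 3′ side and 40 only on its 5′ side (adjusted exact p = 2.84e-05). GCACTG (88 members against 36, adjusted exact p = 0.00143) and CACTGA (86 against 35, adjusted exact p = 0.00143) hold CACTG, the last 5 bases of ACAGTG read on the opposite strand. Read on the strand that spells CACTG, the summit was thus more often on the 3′ side of GCACTG and CACTGA. For CACTGT, the reverse complement of ACAGTG, it was more often on the 5′ side, which is the opposite arrangement. Hexamers that overlap or extend ACAGTG were also called, among them TACAGT (70 members against 25) and CAGTGG (98 against 48). So were A-rich hexamers such as AGAAAA (131 members against 65, adjusted exact p = 0.00143) and also ATACAC (68 against 22, adjusted exact p = 0.00126). ATACAC shares 5 bases with TACACT (68 against 28), which shares 5 with ACACTG (74 against 33), a hexamer that holds CACTG. Both of these were called too. In replicate 2 alone and in replicate 1 alone, CACTGA (adjusted exact p = 0.000229 and 0.00802) and AGAAAA (0.00422 and 0.00285) passed. GCACTG (adjusted exact p = 0.102 and 0.342) and ATACAC (0.16 and 0.185) passed in neither, and GCACTG did not pass in the stronger 50% of members (0.175). Among the 90 members with no soft-masked base within 125 bp of the summit, no hexamer passed, and the difference for ACAGTG was 15.6 percentage points of members (adjusted exact p = 1), against 9.86 points in all members.

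**Figure D1:**
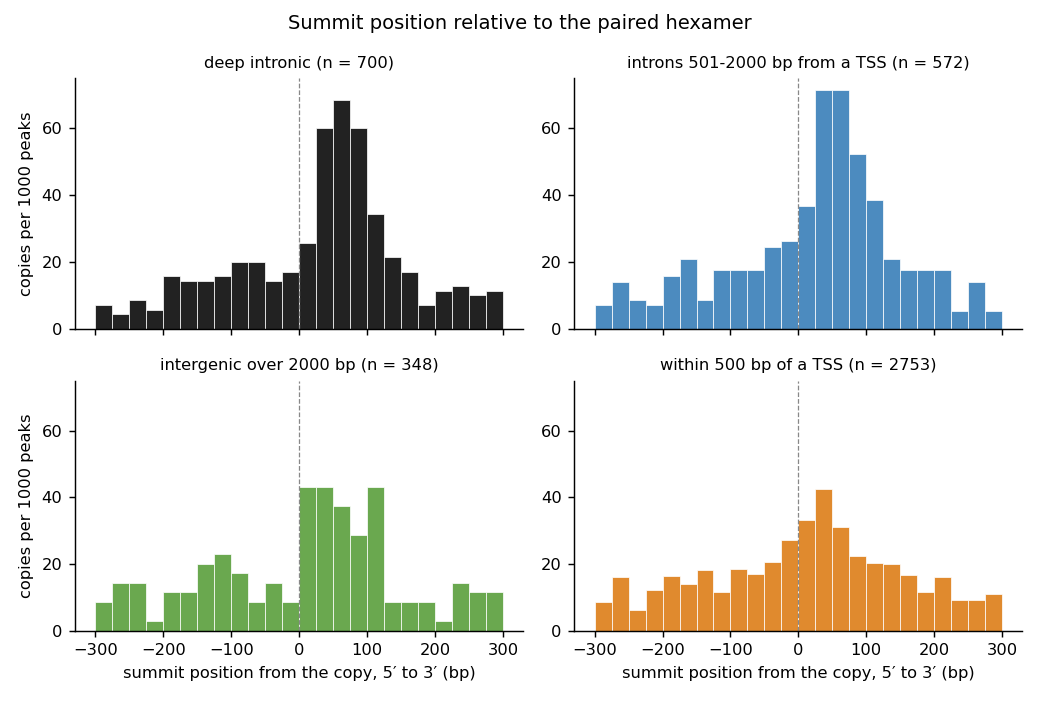
Position of the peak summit relative to each copy of ACAGTG (the paired hexamer), in bins of 25 bp from 300 bp on the 5′ side (negative) to 300 bp on the 3′ side (positive), as copies per 1000 peaks, for peaks in 4 positions. Bars are highest from 25 to 100 bp on the 3′ side in deep introns, where 156 copies stood at 25 to 125 bp against 49 on the other side.

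The same arrangement was counted in each replicate's own list, whose reads also entered the series-level list. The deep intronic peaks of replicate 1 alone (268 peaks) had 85 copies with the summit 25 to 125 bp on the 3′ side and 16 on the 5′ side, and those of replicate 2 alone (510 peaks) had 121 and 37. ACAGTG passed the test over all hexamers in both (adjusted exact p = 1.39e-05 and 0.000288). Intronic peaks between 500 and 2000 bp from a TSS had 134 copies against 44, intergenic peaks over 2000 bp from a TSS 53 against 22, and peaks within 500 bp of a TSS 321 against 187. The 3′ to 5′ ratio was thus 3.18 in deep introns, 3.05, 2.41 and 1.72 in these other positions. The difference between positions was not tested.

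Among the 700 members, 115 (16.4%) carried such a copy. In 4 equal groups by signal, of 175 members each, they made up 27.4% of the strongest, then 16.6%, 10.3% and 11.4% of the weakest. Their median signal was 99.4, against 78.3 in the 585 others, and 52 of them (45.2%) were in the thresholded lists of both replicates, against 163 of the others (27.9%). Around the 156 copies, the second base upstream was G in 53.2%, the base directly upstream was C in 41.0% and T in 37.8%, and the base directly downstream was G in 55.1%.

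In 37 members (5.29%) a copy on each side of the summit faced inward, as in the windows of Hr4, Evi5 and CHES-1-like shown above. Copies facing outward on both sides were found in 3 members (0.429%), among them the CHES-1-like member shown above. Inward pairs were found at 25 of 572 intronic peaks between 500 and 2000 bp from a TSS (4.37%), at 9 of 348 intergenic peaks (2.59%) and at 24 of 2753 peaks within 500 bp of a TSS (0.872%). The starts of the copies were 153 bp apart at the median (interquartile range 144 to 166, from 87 to 203), and 8 of the 37 pairs were 144 or 145 bp apart. The search allowed copies between 25 and 125 bp from the summit, which bounds this distance. The strongest of the 37 were in Btk (a Tec-family tyrosine kinase), Hr4 (an ecdysone-induced nuclear receptor), Evi5, CHES-1-like (a forkhead protein), sr (the Egr-type factor of tendon cells), wts (the kinase Warts of the Hippo pathway), CG32264, MCU (the mitochondrial calcium uniporter) and cic (the repressor Capicua). Of the 37, 21 were in the lists of both replicates. These counts were chosen after the values were seen and were not tested.

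Motif shares were next compared between the summit window, 50 bp to each side of the summit, and a flank of the same length centred 400 bp away, on alternating sides. Of 35 motifs searched on both strands, 3 were higher at the summits (8.57%) and none was lower (0.0%) at an adjusted p under 0.05 in the exact sign test. The tests were chosen with earlier results of these data known, and the adjustment over the 35 motifs does not cover that choice. At an unadjusted p under 0.05 there was 1 lower motif, the GAGA repeat GAGAGAG bound by Trl, in 1.71% of summit windows and 4.0% of flanks. CACTG was in 25.6% of summit windows and 14.6% of flanks (difference 11.0 percentage points, 95% interval 7.02 to 14.98, adjusted exact p = 4.3e-06). ACAGTG, which contains the reverse complement of CACTG, was in 10.7% and 4.57% (difference 6.14 points, 3.45 to 8.83, adjusted exact p = 0.000207 over the 35 motifs and 0.0082 over 2080 hexamers). Among the 383 members over 5000 bp from a TSS neither passed: the differences were 6.79 and 4.44 points (adjusted exact p = 0.161 for each). In shorter windows, reaching 25 bp to each side of the summit, neither passed in the 700 members: the differences were 3.57 and 2.14 points (adjusted exact p = 0.165 for each). Moving the window along the peak, CACTG was in 31.6% of windows centred 100 bp to the left of the summit and 28.4% of those 100 bp to the right, and in 14.9% and 16.4% at 200 bp. The share was thus higher at 100 bp than at the summit, where it was 25.6%. Over the 370002 non-overlapping windows of that length that tile all deep intronic sequence, ACAGTG was in 3.63%, CACTG in 14.9% and AGGGGG in 3.59%. GAGAGAG was in 1.33% of them, below its shares both at the summits and in the flanks.

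The site of Runx proteins, TGTGGT, was in 6.0% of summit windows and 1.86% of flanks (adjusted exact p = 0.000665). Its share in the tiled deep intronic sequence was 4.24%, above the share in flanks. With the flank on the other side of the summit, chosen after seeing the data, the difference fell to 1.71 percentage points (adjusted exact p = 0.618), and in replicate 2 alone and replicate 1 alone it was 2.35 and 2.61 points (adjusted exact p = 0.768 and 0.702). AGGGGG was in 9.86% and 3.57% (adjusted exact p = 0.003, over 2080 hexamers). It did not pass in replicate 2 alone (4.51 points, adjusted exact p = 0.319) or in replicate 1 alone (1.49 points, adjusted exact p = 1). It was in 7.14% of summit windows among the stronger 50% of members and in 12.6% among the weaker 50%. The 69 members that carried it were in both replicate lists in 14.5% of cases, against 32.5% of the other 631, and their median signal was 72.4. The ranked series-level list held 35691 further deep intronic peaks that overlap no thresholded peak. Of their summit windows, 6.34% held AGGGGG, against 3.59% of the tiled deep intronic sequence, while 4.3% held ACAGTG and 4.53% TGTGGT.

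Neither form of the NFAT site passed the test between summits and flanks. The core GGAAA was in 28.6% of summit windows and 29.7% of flanks (difference -1.14 points, 95% interval -5.84 to 3.56, adjusted exact p = 1), and 22.7% of windows 100 bp to the left of the summit held it. The longer form TGGAAANNT was in 4.0% and 3.86% (difference 0.14 points, interval -1.9 to 2.18, adjusted exact p = 1). The Rel site GGGAAANCC was in 0.286% and 0.714%, and the AP-1 site TGANTCA in 2.14% and 2.29%. Members with the NFAT core had a median signal of 79.5 and those without it 81.1. The 28 members with the longer form had a median of 86.6, against 79.9 in the other 672, and 42.9% of them were in both replicate lists, against 30.2%. In the tiled deep intronic sequence the core was in 31.6% of windows and the longer form in 3.39%.

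Of the 2080 hexamers, 4 were higher at the summits (0.192%) and 4 were lower (0.192%) at an adjusted p under 0.05, and at an unadjusted p under 0.05 there were 92 and 62. The higher ones were AGGGGG and ACAGTG, the Runx site TGTGGT given above, and ATGATA (6.43% against 2.29%, adjusted exact p = 0.0457). The 4 lower ones were A-rich: AAAAAG (12.7% against 22.7%, adjusted exact p = 0.00133), CAAAAA (16.3% against 25%), AAAAGA (8.29% against 15%) and ACAAAA (12.6% against 20%). In the tiled deep intronic sequence ATGATA was in 4.81%, above its share in flanks. There AAAAAG was in 17.0%, CAAAAA in 20.9%, AAAAGA in 12.5% and ACAAAA in 18.4%, each below its share in flanks and above that at summits. In each replicate alone, none of the 4 lower hexamers passed, and ACAGTG was the one of the 8 that passed in both. All 8 hexamers that contain CACTG had a higher share at the summit than in the flank, and 1 of them was called. Mean GC content was 41.3% at summits and 40.9% in flanks.

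**Figure D2:**
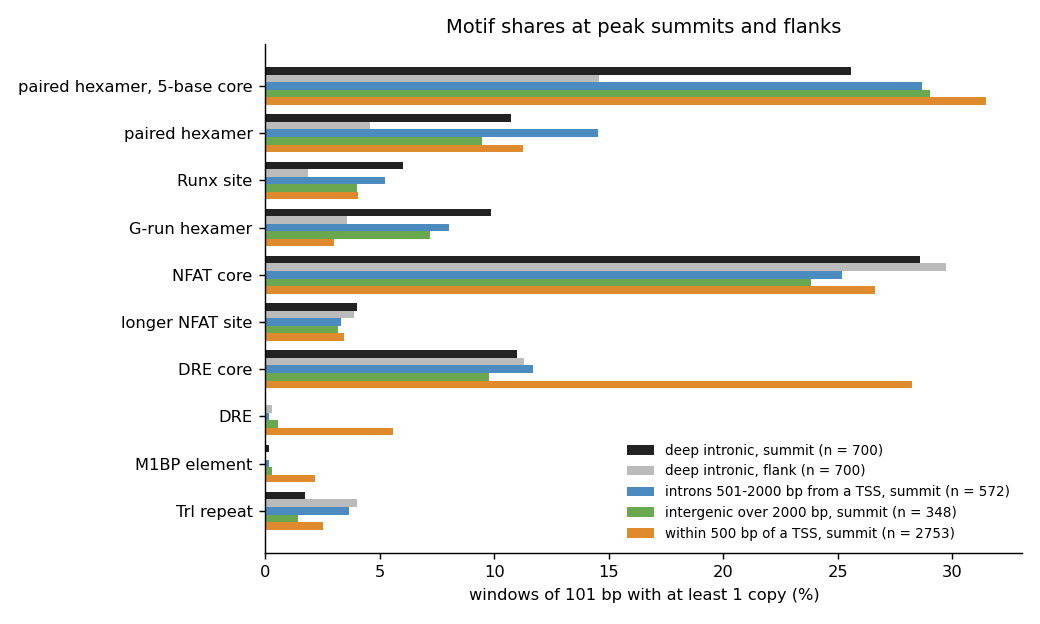
Share of summit windows and flanks with at least 1 copy (%) for 10 motifs (the paired hexamer is ACAGTG and its 5-base core CACTG, the G-run hexamer AGGGGG, the DRE core CGATA and the Trl repeat GAGAGAG), at the summits and flanks of the 700 deep intronic peaks and at the summits of peaks in 3 other positions. The 5-base core of the paired hexamer stands at 25.6% at deep intronic summits against 14.6% in flanks, and the DRE stands at 0 at deep intronic summits and 5.59% at summits near TSSs.

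Against peaks in other positions, promoter elements were present at a smaller share of deep intronic summits than of summits near a TSS. The classes are set by distance to a TSS, and promoter sequence without peaks was not searched. The comparison thus cannot separate the peaks from the kind of sequence in which they lie. The 35 motifs were compared with each of 3 classes by Fisher's exact test, and 3 of 105 comparisons passed (2.86%), all against the 2753 peaks within 500 bp of a TSS. The DRE, TATCGATA, the site of the promoter factor Dref, was in none of 700 summit windows and in 5.59% of those near a TSS (adjusted exact p = 2.2e-14). CGATA, its last 5 bases, was in 11.0% and 28.3% (adjusted exact p = 1.16e-21). In the flanks of deep intronic peaks and in the tiled deep intronic sequence, CGATA was in 11.3% and 10.3%, near its share at the members' summits. The DRE was in 0.286% and 0.187% of these. GGTCACACT, the element of the promoter factor M1BP, was in 0.143% and 2.18% (adjusted exact p = 0.00108), and this did not pass without replicate 1 (adjusted exact p = 0.0613) or without replicate 2 (0.377). No motif differed in the main test from intronic peaks between 500 and 2000 bp from a TSS or from intergenic peaks over 2000 bp from one. ACAGTG was in 14.5% of the former and 9.48% of the latter, against 10.7% in deep introns and 11.3% near a TSS. CACTG was in 25.6% of deep intronic summit windows, less than in each of these other positions. Its share was 28.7% at the nearer intronic peaks, 29.0% at intergenic peaks and 31.5% near a TSS. The difference from peaks near a TSS did not pass (adjusted exact p = 0.0516). The summit shares of these motifs thus did not set deep intronic peaks apart.

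Recovery in each replicate was uneven. Of the 700 members, 256 (36.6%, 33.1 to 40.2) overlapped a peak of replicate 1's own thresholded list and 455 (65.0%, 61.4 to 68.4) one of replicate 2. Both lists held 215 (30.7%), replicate 1 alone 41, replicate 2 alone 240, and neither 204 (29.1%). The list of replicate 1 is shorter, with 2263 peaks against 4000. In the full ranked lists, 657 members met a peak of replicate 1 and 696 one of replicate 2. Among the stronger 50% of members, 65.1% were in replicate 1, 90.6% in replicate 2 and 60.0% in both. Of 653 members with a ranked peak in both replicates, the rank correlation of the signals was 0.600 over these peaks, which share the 2 libraries, and 542 members had the higher signal in replicate 2.

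**Figure D3:**
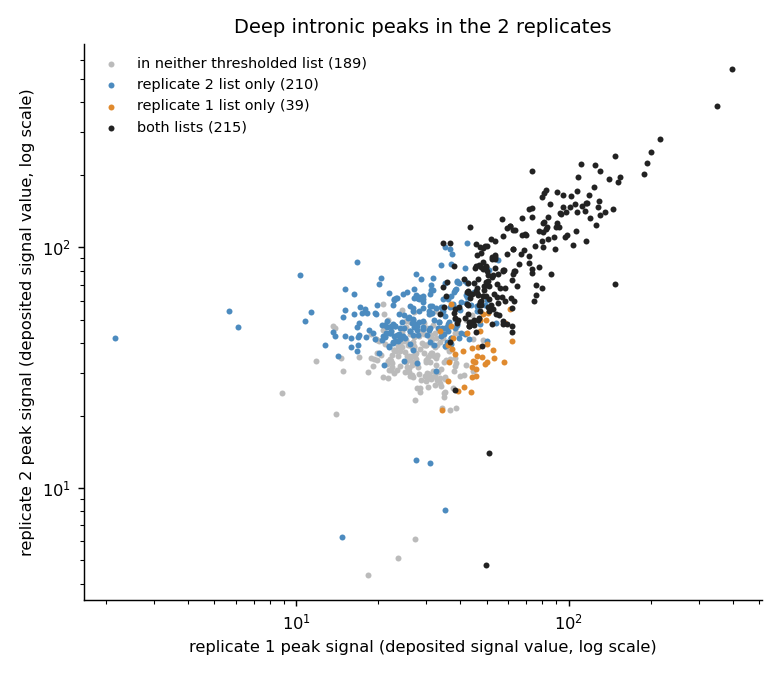
Signal of each deep intronic peak in replicate 1 (horizontal, log scale) and replicate 2 (vertical, log scale), coloured by the thresholded list that held it, for the 653 members with a ranked peak in both replicates. The 215 in both lists lie towards the upper right, and the 189 of those drawn that were in neither list lie towards the lower left.

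Signals of the members ranged from 2.21 to 942.7, with a median of 80.6 and an interquartile range of 64.0 to 112.8. Their medians were 35.1 in replicate 1 and 48.8 in replicate 2. The median was 91.0 for intronic peaks between 500 and 2000 bp from a TSS, 79.5 for intergenic peaks over 2000 bp from one and 102.2 for peaks within 500 bp of one. The share of deep intronic peaks among all peaks rose down the list, over 4 equal groups by signal, from 9.63% of the strongest to 12.4%, 16% and 19.1%, and 1 of the strongest 25 peaks was a member. The conservative list, a stricter version of the series-level list, held 489 members (69.9%). That was less than for intronic peaks between 500 and 2000 bp from a TSS (77.6%, odds ratio 0.668, adjusted exact p = 0.00328, Fisher's exact test) and for peaks within 500 bp of a TSS (78.0%, odds ratio 0.653, adjusted exact p = 2.66e-05). With a limit of 1000 bp in place of 2000 bp, the difference from nearer intronic peaks did not pass (adjusted exact p = 0.446). Against intergenic peaks (70.4%) the odds ratio was 0.974 (adjusted exact p = 0.886). The medians of signal given above differ in the same direction, and their part in this difference was not tested. In 11 members the series-level signal was below the signals of both replicates, as at 2.21 in CHES-1-like (50.8 in replicate 1 and 14 in replicate 2).

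Deep intronic peaks were denser close to the limit of the rule. The sequence that meets the rule spans 39.5 Mb, 28.7% of the arms, and held 17.7 peaks per Mb (16.4 to 19.1). Density was 28.1 per Mb between 2000 and 5000 bp from a TSS, 21.2 to 10000 bp, 14.1 to 20000 bp and 5.84 beyond. Median signal changed little over the same steps, at 83.3, 78.2, 78.5 and 84.6. The median distance to a TSS was 5652 bp, and the farthest member, in Myo81F, lay 816615 bp away. Density on the X chromosome was 22.9 per Mb (19.5 to 26.7), against 17.2 (15.8 to 18.7) on autosomes 2 and 3. Among the arms it was 22.3 on 2L, 19.4 on 3L, 16.8 on 2R and 13.1 on 3R. No member was on 4 or Y, where the whole list had only 1 and 4 peaks of any position.

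Intron 1 of at least 1 isoform held 415 members (59.3%, 55.6 to 62.9), and 228 (32.6%, 29.2 to 36.1) lay in intron 1 of every isoform that spans the summit. Introns that are first in at least 1 isoform make up 37.1% of the sequence that meets the rule. A later TSS of the host gene lay downstream of the summit in 276 members (39.4%). The intron around the summit measured 11488 bp at the median and the nearest exon was 2288.5 bp away. A non-coding TSS lay within 500 bp of 17 members (14 ncRNA, 2 tRNA and 1 snoRNA). The strongest of these was in osa, which encodes a subunit of the Brahma chromatin-remodelling complex, 110 bp from the TSS of a non-coding RNA. Of the members, 333 (47.6%) had another member within 10000 bp.

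Genes of ecdysone response and of insulin, TOR and stress response held deep intronic peaks in 11 of 22 eligible genes in each list (50%). Of 4339 protein-coding genes with any sequence that meets the rule, 444 hosted at least 1 member (10.2%). That share depended on how much such sequence a gene has, from 0.115% among the 868 genes with least of it to 32.2% among the 867 with most. The lists were described by counts and not tested. The median length of eligible sequence was 18309 bp for the ecdysone genes and 3670.5 bp for the insulin and stress genes, against 1413 bp for all eligible genes. Among genes with at least 3000 bp of it, a choice made after seeing the data, 23.7% of all hosted a peak, against 50% of 20 ecdysone genes and 83.3% of 12 insulin and stress genes.

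**Figure D4:**
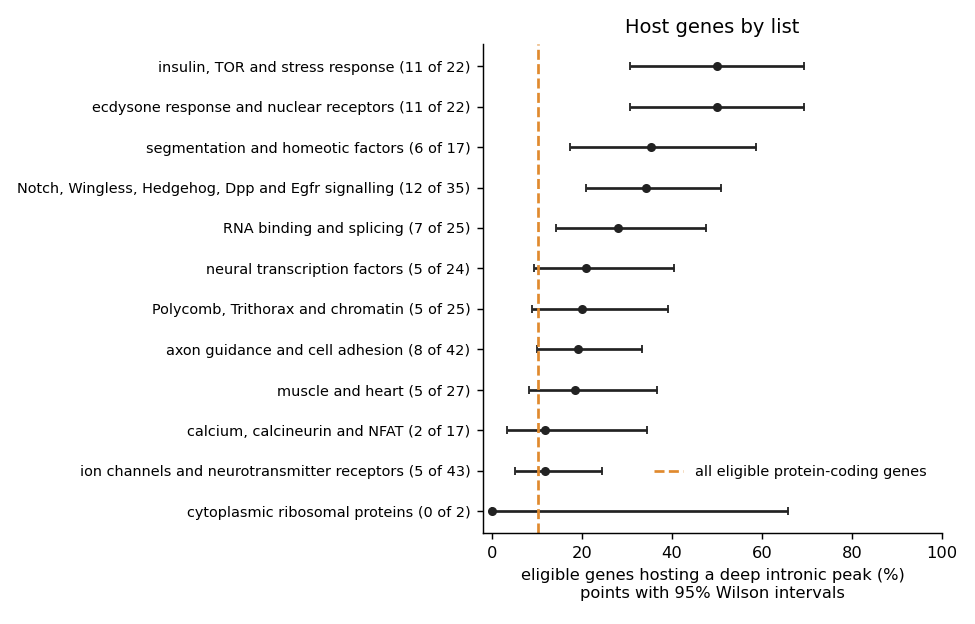
Share of eligible genes (%) that hosted at least 1 deep intronic peak, for 12 lists of genes, with 95% Wilson intervals and the numbers of hosts and eligible genes. The dashed line marks the 10.2% of all 4339 eligible genes, and the ecdysone and insulin lists stand at 50%.

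The highest signal in each ecdysone host ranged from 28.3 in Hr38 to 360.0 in EcR, and it was 63.2 in Eip74EF, 65.6 in Hr96 and 74.6 in ftz-f1. EcR, the ecdysone receptor, held 2 members, the stronger at chr2R:6151124-6151362 with a signal of 360.0 (125.1 in replicate 1 and 220.5 in replicate 2). Hr4 held 5 members, Hr3 2, Eip75B 4, tai (a coactivator of EcR) 3, and ftz-f1 3. The 5 signals in Hr4 were 103.1, 142.6, 196.8, 286.2 and 294.5, and all 5 members were in the list of replicate 2 and 4 in that of replicate 1. Eip75B, a nuclear receptor that ecdysone induces, had signals of 72.7, 110.5, 117.1 and 258.4, of which replicate 1 gave 31.3, 42.6, 37.1 and 82.8.

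In the insulin, TOR and stress list, the highest signal in each host ranged from 58.9 in S6k, the ribosomal protein S6 kinase, to 105.2 in Pdp1, a bZIP transcription factor. The receptor InR held 2 members with signals of 62.4 and 68.1, and foxo, the transcription factor that insulin signalling holds out of the nucleus, held 1 with 59.1. Atf3 held 2 with 77.7 and 100.97, puc, the JNK phosphatase, 4 with 55.7 to 93.1, and REPTOR, a transcription factor downstream of TOR, 1 with 94.8. With the list of replicate 1 alone 13.6% of these genes hosted a peak and with that of replicate 2 alone 36.4%, against 4.75% and 7.77% of all eligible genes. The ecdysone genes stood at 27.3% and 31.8%.

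Notch, Wingless, Hedgehog, Dpp and Egfr signalling genes hosted in 12 of 35 cases (34.3%), led by aos, the secreted Egfr inhibitor (271.4), aop, the Ets repressor Yan (249.2), the receptor fz (179.8) and the Notch coactivator mam (161.3). Segmentation and homeotic factors hosted in 6 of 17 (35.3%), among them Antp, hth, Abd-B and cad. RNA-binding genes stood at 7 of 25, neural transcription factors at 5 of 24, chromatin genes at 5 of 25, axon guidance genes at 8 of 42 and muscle genes at 5 of 27. Median eligible length was 13595 bp for the signalling genes, 13469 bp for segmentation factors and 15830 bp for RNA-binding genes. It was 19625 bp for neural factors, 31591 bp for axon guidance, 1052 bp for chromatin and 3993 bp for muscle genes, against 1413 bp for all. Of the 867 genes with most such sequence, from 11496 bp, 32.2% hosted a peak. Ion channels and neurotransmitter receptors hosted in 5 of 43 (11.6%), although the median eligible length of these genes was 18556 bp. Calcium and calcineurin genes hosted in 2 of 17 (11.8%), and none of the 2 eligible ribosomal protein genes did. Per Mb of eligible sequence, summed over genes, axon guidance genes held 5.57 members, ion channels 5.7, RNA-binding genes 6.75 and neural factors 12.7. These densities were below the 17.1 of all eligible genes. Densities above it were 30.3 for segmentation factors, 32.0 for muscle, 34.4 for signalling and 37.6 for calcium genes. Ecdysone genes stood at 45.8, insulin and stress genes at 103.7 and chromatin genes at 118.4. Of the 12 chromatin members, 8 lay in CHES-1-like. With the list of replicate 2 alone and of replicate 1 alone, beside 7.77% and 4.75% of all eligible genes, the shares were 28.6% and 20% for the signalling genes and 29.4% and 17.6% for the segmentation factors. They were 24% and 8% for RNA-binding genes, 16.7% and 4.17% for neural transcription factors, and 20% and 12% for chromatin genes. Axon guidance genes stood at 16.7% and 9.52%, muscle genes at 14.8% and 7.41%, ion channels at 4.65% and 2.33%, and calcium genes at 11.8% in both. In replicate 1 alone, neural transcription factors were near the share of all eligible genes. Ion channels had a lower value than all eligible genes with either list. With 24 and 43 eligible genes, these shares rest on very few hosts, and the differences were not tested. Wilson intervals for the lists are wide, for instance 30.7 to 69.3 for the ecdysone genes.

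The tagged gene itself held 4 deep intronic peaks. At NFAT, on X, signals were 69.8, 72.3, 92.6 and 141.2, and distances to the nearest TSS ran from 3286 to 8351 bp. Replicate 1 gave 36.1, 45.9, 31.1 and 52.5, and replicate 2 gave 39.4, 31.3, 64.0 and 75.4. The strongest was in both replicate lists, 2 were in replicate 1 alone and 1 in replicate 2 alone. The part of the tagged insertion in these values was not tested. The other host of that list was MCU, with 1 member (180.0).

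Members per host gene ran from 1 to 9: 279 genes had 1, 107 had 2 and 27 had 3, and the rest held 4 or more. The gene sbb (a zinc finger corepressor) had 9 on 2R, with signals of 57.0, 65.8, 70.4, 105.7, 111.8, 114.9, 186.6, 206.2 and 252.6, and all 9 were in replicate 2's list and 5 in replicate 1's. CHES-1-like and Raf, the MAP kinase kinase kinase of Egfr and other receptor signalling, had 8 each. The 8 in CHES-1-like had signals of 2.21, 58.4, 95.7, 112.7, 116.2, 119.3, 281.7 and 497.4. In Raf they were 4.72, 71.9, 82.2, 84.4, 97.2, 106.5, 324.8 and 411.9, and the member of 4.72 met the same replicate peaks as a neighbour of 82.2. Snoo, a Smad corepressor of the Ski family, also had 8, from 58.2 to 111.5 and spread from 3503 to 41824 bp from a TSS. sick and Antp, the homeotic factor, had 6 each, as did PRAS40, an inhibitor of TOR complex 1. Glut4EF and CG46467 share the same 5 members, and 5 of the 6 in Antp also lie in CG46458, so these counts are not independent.

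**Figure D5:**
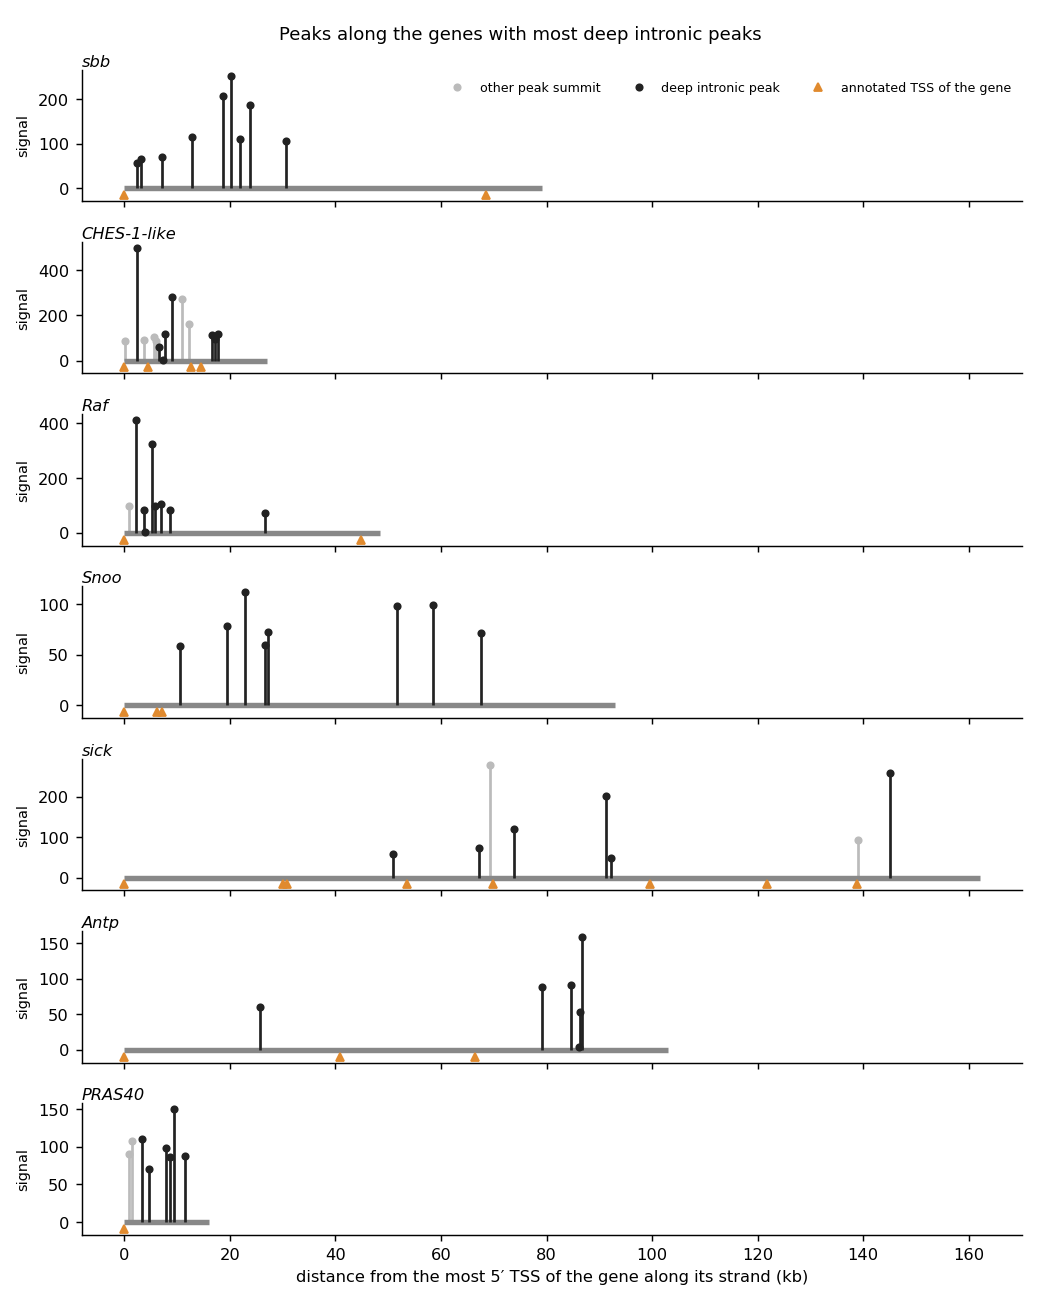
Peak signal against distance from the most 5′ annotated TSS (kb, along the gene's strand) for the 7 genes with at least 6 deep intronic peaks, with other peak summits in grey and annotated TSSs as triangles. In sbb the members reach 252.6, and in Snoo they spread over the gene with signals from 58.2 to 111.5.

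The strongest member was at chrX:3742102-3742353 in Tlk, which encodes the Tousled-like kinase, a nuclear kinase linked to chromatin assembly. It had a signal of 942.7 (396.2 in replicate 1 and 548.8 in replicate 2) and lay 2341 bp from a TSS. CG32486 followed with 728.5 (348.9 and 385.1), then CHES-1-like with 497.4 (216.8 and 282.3), CG34417 with 444.2 (200.7 and 247.8) and Raf with 411.9 (194.2 and 224.4). Below these came CG8745 (391.3), EcR (360.0), mnb, the kinase Minibrain (354.3), osa (338.7), CG12769 (335.7), Pp2C1 (332.3), RapGAP1 (326.7), Tis11, which promotes mRNA decay (308.2), Btk (303.7) and Evi5 (283.1). A peak of 282.7 lay in a place shared by CG46321, CG12912 and Hr3. Jupiter (273.2), aos with CG33158 (271.4), kirre with CG32795 (271.3) and apt (259.8) closed the strongest 25. All 25 were in both replicate lists.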

How the data were processed

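The study measured NFAT-eGFP binding by ChIP-seq in 2 biological replicates of whole embryos. The authors' peak lists use dm6 coordinates, per the labels. Aligner, caller and settings: not given in the sources used here. In each list the deposited signal value, a −log10 q-value and a summit position were read; the deposited summit offset is counted from the peak start. Peaks were placed with the Ensembl annotation BDGP 6.54 and sequences came from the RefSeq Release 6 genome. Windows reaching 50 bp to each side of the summits and flanks 400 bp away were compared by exact two-sided sign tests, peak positions by Fisher's exact test, all with Benjamini-Hochberg adjustment; scripts were tested on simulated data. Replicate recovery needed an overlap of 1 bp. Python 3.11.15, NumPy 2.4.6, pandas 2.3.3, SciPy 1.17.1 and matplotlib 3.10.9 were used. There were 15 stated alternatives and 11 added after seeing the data. The members, gene lists and tests were chosen with earlier results of these data known. Named genes are the strongest 25 members, the genes with most members and hosts in the lists. Depth is unknown; intervals are 95% and cover counting error only. The 25 peaks off the arms were left out. One gene list and one sequence window are not reported here.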

Additional observations from a re-analysis of the deposited data

Results flagged for a closer look

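In the ranked series-level list, 22 deep intronic peaks passed the 0.01 limit of irreproducible discovery rate but were not in the thresholded list, and none of them overlapped a peak of it. They were found in data outside the comparisons above. Of the 22, 9 lay in tara, 2 in Kdm2 and 2 in InR, and the strongest was in trx. On Y, 1 lay in Ppr-Y and 1 in kl-5. Why they are missing from the thresholded list was not tested.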

How the results depend on the processing

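Samples could not be paired between conditions because there was 1 group. The sign tests paired windows, or sides of the summit, within a member. Of 508 recomputed values, 341 kept their direction and side of the threshold or moved little. Of the rest, 76 no longer passed the threshold, 12 newly passed it, 72 moved further and 7 reversed direction. On the conservative list, 46.5% of members were in replicate 1 and 39.7% in both, the median signal was 90.6, 2 hexamers were higher and 0 lower, and 8.21% of eligible genes hosted a peak. With 1 replicate's list alone, members made up 11.99 to 12.77% of peaks, 206 to 337 genes (4.748 to 7.767%) hosted one, 1 to 3 hexamers were higher and 0 lower, 0 to 1 motif was lower (the CA repeat CACACACA, in replicate 1), 10 to 13 hexamers differed between sides, and AAAAGA ranged from -5.294 to 1.119 points. Over 1000 bp from a TSS, members were 20.2% of peaks and 9.06% of genes hosted one; the log2 odds ratio of the conservative share was -0.185 against near introns (adjusted exact p = 0.446) and 0.17 against intergenic peaks. Over 5000 bp, members were 7.82%, replicate 2 held 60.3%, 0 motifs were higher, the longer NFAT site stood at -0.522 points and 14.5% of genes hosted a peak. With TSSs of all genes the intergenic log2 odds ratio was 0.000581. With 50% overlap of both peaks the replicate lists held 32.0% and 60.4% and both 25.3%, and with summits within 50 bp replicate 2 held 59.3%. The stronger 50% of members stood at 65.1%, 90.6% and 60.0%, with 1 lower motif (the GAGA repeat), 1 higher hexamer and 0 lower. That repeat was in 1.14% of their summit windows and 5.71% of their flanks, beside 1.33% of the tiled deep intronic sequence. A flank 1000 bp away gave 9 higher and 2 lower hexamers. Summits free of soft-masked bases gave 20 lower hexamers and 0.370 points for the NFAT core. Windows reaching 100 bp to each side gave 20 higher and 2 lower hexamers and 8 motif differences between positions. The flank on the other side gave 2 higher and 1 lower hexamers and -0.429 points for the longer NFAT site. Counting 25 to 75 bp, 8 hexamers differed between sides, and without soft-masked bases 0, with CACTGA at -3.33 points. Among genes with at least 3000 bp, 23.7% hosted a peak. The causes were not tested.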
